A study of Mus musculus with 6 samples.

Results

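The genes described here are the components of TGF-beta and BMP signalling in CAD cells. They comprise ligands, receptors and co-receptors, SMAD proteins, extracellular antagonists and binding proteins, and intracellular regulators with response genes. They were chosen by name, as 54 listed symbols looked up in a table of 26436 genes. The rule that picks them uses no measured value, but the list was drawn up with earlier results of these data known. Of the 54, 47 had a row, and 45 of those had an adjusted p-value. The ligand genes Bmp2, Bmp4, Bmp6, Inhba and Inhbb, the antagonist gene Nog and the binding protein gene Ltbp1 were not analysed here. Tgfbr2 and Grem1 had a row but lay under the authors' limit on low means.

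CAD cells are a mouse line that the labels call catecholaminergic and of the central nervous system. RNA sequencing compared 3 libraries of undifferentiated cells, grown in DMEM/F12 with fetal bovine serum, with 3 libraries of cells held for 5 days in DMEM/F12 without serum but with insulin, transferrin and selenium. Both media carried penicillin and streptomycin, and no further allele or agent is named. All libraries come from this 1 line. Nothing in the labels states that they stem from separate cultures, and the p-values therefore measure the spread among these samples alone, which could be technical. Serum loss, the added supplement and differentiation go together in this design and cannot be told apart.

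In this pathway a secreted ligand dimer brings together type I and type II receptor kinases at the cell surface. TGF-beta and activin ligands pass the signal mainly to SMAD2 and SMAD3, and BMP ligands to SMAD1, SMAD5 and SMAD9. These enter the nucleus with SMAD4 and change the transcription of target genes, among them genes of their own inhibitors, which is the feedback of the pathway. In the embryo, BMP signals induce the noradrenergic programme of sympathetic neurons.

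The values are those of the authors' own comparison, 1 value per gene, and library values were not analysed here, so neither values per sample nor their overlap between groups can be given. Each gene has a mean normalized count over libraries, a log2 fold change (differentiated over undifferentiated) with its standard error (SE), and a Wald p-value with Benjamini-Hochberg adjustment by DESeq2. A gene is said to rise, fall or change where the authors' adjusted p is under 0.05. The level in each group is an implied mean, computed from the mean and the fold change on the assumption that both groups weigh equally, and it carries no error of its own. In bulk RNA, fewer cells of a type and less RNA per cell cannot be told apart. The labelled cell type was checked against its markers. Of 19 neuronal and catecholaminergic marker genes, 17 had a row, with implied sums of 114031 normalized counts in undifferentiated and 163981 in differentiated cells, of which Chgb, a granin gene, made up 49921 and 90786. Of these 17, 7 rose (41.2%, against 18.2% of all genes) and 4 fell (23.5%, against 17.7%). The noradrenergic factor genes Phox2a, Hand2 and Gata2 had means of at least 100, though Phox2a (-0.87, SE 0.15), Gata2 (-0.69, SE 0.16) and Isl1 (-0.71, SE 0.12) fell in the authors' deposited table. Dbh, the enzyme that makes noradrenaline, fell from an implied 568.6 to 14.0 normalized counts, at -5.35 (SE 0.62, adjusted p 3.63e-16) in the authors' deposited table. Th, which encodes tyrosine hydroxylase, was low, with 91.3 as its mean normalized count in the authors' deposited table.

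Differentiated cells had lower transcripts of several inhibitors of the pathway, but not of all. The antagonist gene Chrd rose, and the inhibitor genes Ski, Smurf1 and Smurf2 were not called. The receptors and signal-carrying SMADs also moved in both directions or were not called, and among them Smad9 fell 3.57-fold. The inhibitory SMAD genes Smad6 and Smad7, the pseudoreceptor gene Bambi, the follistatin gene Fst and the target gene Tbx3 fell 3.80-fold to 35.2-fold. The ligand gene Tgfb2 and the co-receptor gene Tgfbr3 rose 2.18-fold and 6.32-fold. Of the 45 genes tested, 22 were called, or 48.9%, against 35.9% of all 20285 genes tested. The 15 that fell are 33.3%, against 17.7% of all genes, and the 7 that rose are 15.6%, against 18.2%. The median log2 fold change was -0.10, and over all genes tested it was 0.01. The share called differs with expression level, and 34 of the 45 had a mean of at least 100. Of these 34, 17 were called, or 50.0%, which is near the 47.5% of all 13197 genes with such a mean. They comprised 11 that fell and 6 that rose, where the background shares are 25.6% and 21.9%. At a minimum of 2-fold, 8 of 45 fell, or 17.8%, against 2.0% of all genes, and 3 rose, or 6.67%, against 6.37%. Of the 34 better expressed genes, 4 fell and 2 rose by that much, where the background shares are 2.09% and 4.77%. The authors' deposited table of KEGG pathways lists the TGF-beta signaling pathway under its lower sets, with a mean set statistic of -3.02 and a q-value of 2.33e-06 over 75 genes. By p-value it is number 15 of the 28 lower pathways listed. That entry rests on the same data and is no separate evidence.

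**Figure D1:**
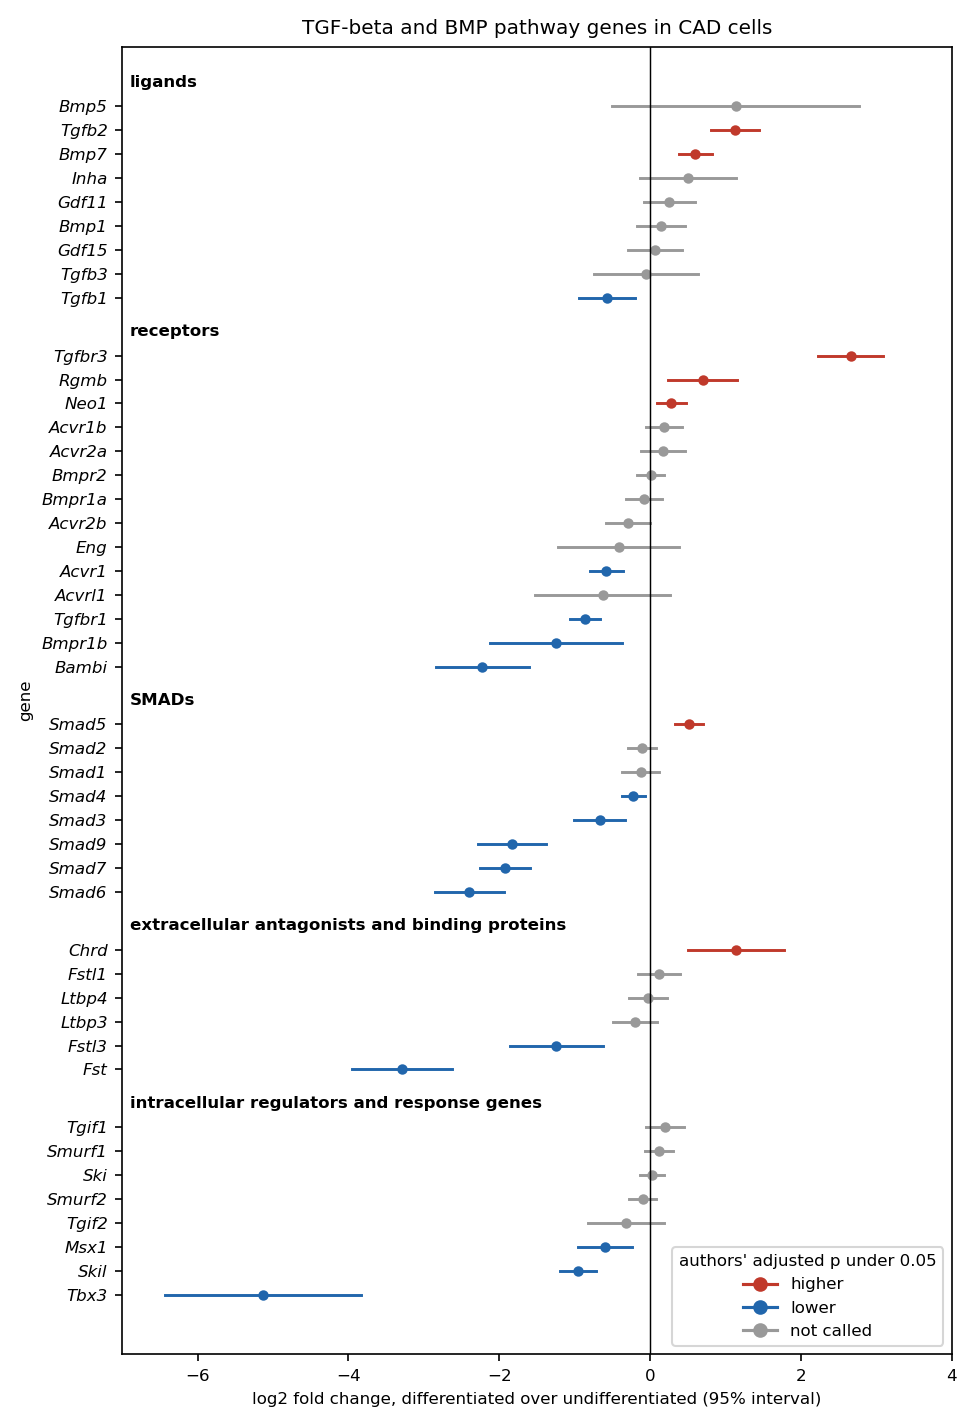
Log2 fold changes of the 45 genes tested (x axis, differentiated over undifferentiated, with 95% intervals from the authors' standard errors), 1 gene per line and grouped by role. Red genes rose, blue genes fell and grey genes were not called; Tbx3 at -5.14 and Tgfbr3 at 2.66 are the extremes, and the 8 SMAD genes run from Smad5 at 0.52 to Smad6 at -2.40.

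The promoters of Smad6, Smad9 and Msx1, which fell, and of Tgfb2, which rose, are shown first, since the first 3 are on the list of known BMP target genes and Tgfb2 had the larger rise of the 2 ligand genes that rose. Each window runs from 250 bases before to 50 bases after the RefSeq transcription start in build GRCm38.p6, written 5′ to 3′ on the gene's own strand. Capitals mark matches, on either strand, to letters known as sites of SMAD complexes. These are GGCGCC and GGAGCC, which are GC-rich sites bound by BMP SMADs, CAGAC, the core of the SMAD box, and GTCTAGAC, the palindrome of that box, which was added after the Smad6 window had been read. The Smad6 window is chr9:64022010-64022309 (minus strand), the Smad9 window chr3:54755332-54755631 (plus strand), the Msx1 window chr5:37824536-37824835 (minus strand) and the Tgfb2 window chr1:186705940-186706239 (minus strand).
Smad6: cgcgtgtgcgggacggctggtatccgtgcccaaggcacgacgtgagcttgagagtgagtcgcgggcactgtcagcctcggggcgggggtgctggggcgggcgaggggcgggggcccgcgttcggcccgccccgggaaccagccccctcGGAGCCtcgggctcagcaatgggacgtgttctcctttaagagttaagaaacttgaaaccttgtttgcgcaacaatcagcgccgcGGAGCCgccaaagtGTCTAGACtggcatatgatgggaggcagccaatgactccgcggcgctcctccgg
Smad9: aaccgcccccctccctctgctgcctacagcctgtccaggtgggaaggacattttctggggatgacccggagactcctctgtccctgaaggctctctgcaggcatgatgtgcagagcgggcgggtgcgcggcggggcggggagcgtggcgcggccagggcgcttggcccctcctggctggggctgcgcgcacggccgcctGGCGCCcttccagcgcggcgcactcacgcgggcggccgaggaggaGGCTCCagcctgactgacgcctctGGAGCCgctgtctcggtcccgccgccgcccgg
Msx1: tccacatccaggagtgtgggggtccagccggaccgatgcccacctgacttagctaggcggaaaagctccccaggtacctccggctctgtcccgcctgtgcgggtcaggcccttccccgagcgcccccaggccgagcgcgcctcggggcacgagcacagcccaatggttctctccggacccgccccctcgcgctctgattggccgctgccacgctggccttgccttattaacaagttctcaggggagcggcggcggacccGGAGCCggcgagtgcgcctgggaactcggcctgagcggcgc
Tgfb2: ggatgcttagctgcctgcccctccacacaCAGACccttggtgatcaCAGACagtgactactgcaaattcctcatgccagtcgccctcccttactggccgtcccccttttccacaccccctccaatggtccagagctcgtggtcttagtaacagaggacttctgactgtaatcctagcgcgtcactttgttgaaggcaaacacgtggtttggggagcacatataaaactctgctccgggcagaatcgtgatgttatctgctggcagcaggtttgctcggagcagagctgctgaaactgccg

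The Smad6 window held GGAGCC at 2 places and GTCTAGAC at 1. The Smad9 window held GGCGCC at 1 place and GGAGCC at 2, the Msx1 window held GGAGCC at 1, and the Tgfb2 window held CAGAC at 2. The windows of Smad5 and Neo1, which rose, also held GGCGCC and GGAGCC, and that of Smad3, which fell, held none of the motifs. Over all 32851 RefSeq promoter windows of the same length, 11.9% held GGCGCC, 30.8% GGAGCC, 49.6% CAGAC and 0.213% GTCTAGAC. Of the 54 listed genes, 40 had 55 windows. GGCGCC lay in 27.3% of these windows, GGAGCC in 50.9%, CAGAC in 49.1% and GTCTAGAC in 1.82%, which is the 1 Smad6 window that prompted the search and so no comparison with the share over all windows. These are matches of letters and say nothing of binding in these cells, and the base composition of the windows was not compared.

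Among the ligand genes, Tgfb2 and Bmp7 rose, Tgfb1 fell and the other 6 of 9 tested were not called. The share called, 33.3%, is near the 35.9% of all genes tested. Tgfb2 (chromosome 1, 186622792 to 186705989 in GRCm38, as are all gene coordinates here), the TGF-beta ligand with the highest level per length, went from an implied 3392 to 7400 normalized counts. In the authors' deposited table its log2 fold change was 1.13 (SE 0.16, adjusted p 1.79e-10). Bmp7, a BMP that signals through ACVR1 and the BMP type I receptors, went from an implied 3513 to 5325 normalized counts. Its log2 fold change in the authors' deposited table was 0.60 (SE 0.11, adjusted p 1.27e-06). Tgfb1, the ligand best known from immune and matrix regulation, went the other way, from an implied 539.1 to 362.5 normalized counts. The authors' deposited table gives it a log2 fold change of -0.57 (SE 0.19, adjusted p 0.00924). The 95% intervals of Tgfb1 (-0.94 to -0.20) and Tgfb2 (0.80 to 1.45) did not overlap. Tgfb3 stood at -0.05 (SE 0.35) at a mean of 99.0 in the authors' deposited table, so its interval covers both a fall and a rise of more than 1.5-fold.

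Per kb of annotated exon, Tgfb2 made up 81.1% of the implied level of the 3 TGF-beta ligand genes in undifferentiated cells and 92.7% in differentiated cells, while Tgfb1 went from 14.8% to 5.22%. The order of the ligands by implied normalized counts per kb in undifferentiated cells was Bmp7 (874.0), Tgfb2 (585.7), Gdf15 (565.6), Gdf11 (313.5), Bmp1 (170.6) and Tgfb1 (106.9), with Inha, Tgfb3 and Bmp5 between 31.1 and 2.03. Tgfb2 and Gdf15 are close neighbours in that order and, with no library values, were not compared for their spread. In differentiated cells Bmp7 (1325) and Tgfb2 (1278) led, and Gdf15 followed at 592.5.

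The other ligand genes missed the threshold. Gdf15, a stress-induced cytokine of this family, stood at 0.07 (SE 0.18) and Gdf11, a relative of myostatin, at 0.25 (SE 0.17) in the authors' deposited table. Bmp1, which despite its name is a metalloprotease that cleaves procollagen and chordin, stood at 0.15 (SE 0.16) in the authors' deposited table. Inha, the alpha subunit of inhibin, which opposes activin, stood at 0.50 (SE 0.32) with 55.5 as its mean in the authors' deposited table. Bmp5 was scarce, at a mean of 13.1, and its log2 fold change of 1.14 in the authors' deposited table has a standard error of 0.84.

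**Figure D2:**
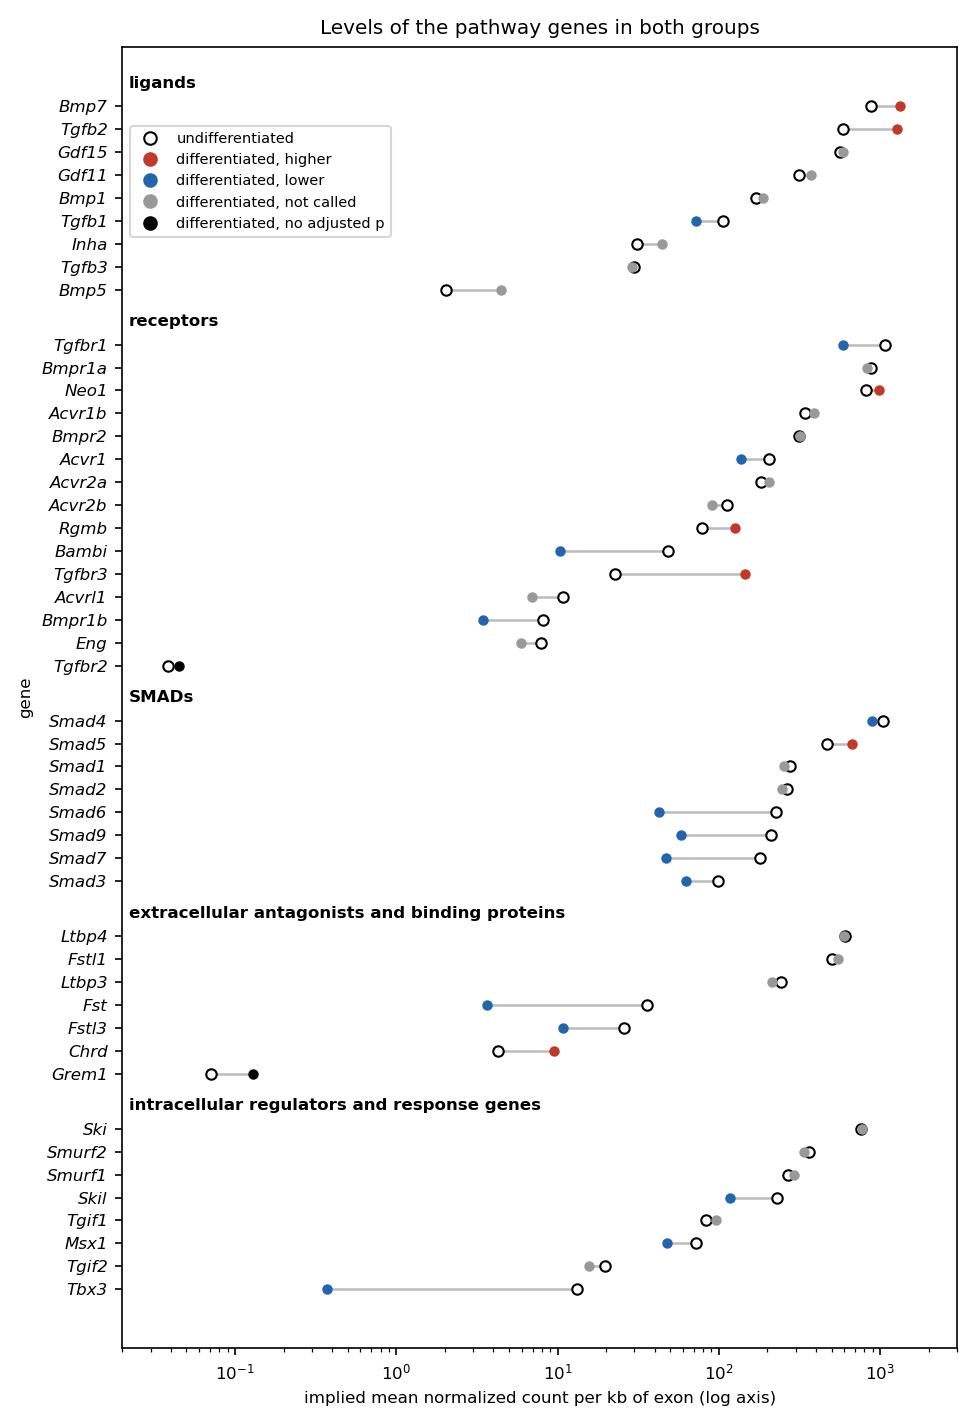
Implied mean normalized counts per kb of exon (x axis, log scale) of the 47 genes with a row, open circles for undifferentiated and filled circles for differentiated cells. The circles of most genes lie close together, while Smad6, Smad7, Smad9, Bambi, Fst and Tbx3 move left, and Tgfbr3 and Tgfb2 move right. Tgfbr2 and Grem1 have the lowest levels in both groups.

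Of 14 receptor genes tested, 3 rose (21.4%, against 18.2% of all genes) and 4 fell (28.6%, against 17.7%), and the other 7 were not called. Among the 11 with a mean of at least 100, 3 rose and 3 fell. That is 54.5% called, near the 47.5% of all genes with such a mean, of which 21.9% rose and 25.6% fell. Tgfbr3 (chromosome 5, 107106570 to 107289629), which encodes betaglycan, a co-receptor that binds TGF-beta and above all TGF-beta 2, rose from an implied 149.7 to 946.4 normalized counts. Its log2 fold change in the authors' deposited table was 2.66 (SE 0.22, adjusted p 2.60e-31), and the 95% interval is 2.23 to 3.09. Another gene on the same strand overlaps 297 of its 6545 exon bases. Tgfbr1, the type I receptor kinase of TGF-beta, fell from an implied 6963 to 3835 normalized counts. The authors' deposited table puts it at -0.86 (SE 0.10, adjusted p 1.80e-15). So the transcripts of the type I receptor and of the co-receptor betaglycan moved in opposite directions.

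Tgfbr2, the type II receptor that TGF-beta needs for its usual signal, was all but undetected, with a mean normalized count of 0.34 in the authors' deposited table, which gives it no adjusted p. Another gene of the table has identical values, which at so low a mean says nothing of where the reads of Tgfbr2 belong. Per kb of exon its implied level was 0.0386 in undifferentiated and 0.0449 in differentiated cells, while Tgfbr1 stood at 1066 in undifferentiated and 587.0 in differentiated cells. Its log2 fold change has an interval of -7.25 to 7.69 and gives no direction. Endoglin (Eng) and Acvrl1, a co-receptor and a type I receptor known from blood vessels, were also low, and neither was called, with means of 28.1 and 37.7 in the authors' deposited table.

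Most BMP and activin receptor genes were not called. The main BMP type I receptor gene Bmpr1a stood at -0.08 (SE 0.12) and the type II receptor gene Bmpr2 at 0.01 (SE 0.09) in the authors' deposited table. Their 95% intervals, -0.31 to 0.15 and -0.17 to 0.19, leave room for changes of up to 1.24-fold and 1.14-fold. Activin receptor genes Acvr1b (0.18, SE 0.12), Acvr2a (0.18, SE 0.15) and Acvr2b (-0.29, SE 0.15) missed the threshold in the authors' deposited table. Acvr1, a type I receptor used by BMP7, fell from an implied 984.7 to 659.6 normalized counts. Its log2 fold change was -0.58 (SE 0.11, adjusted p 1.42e-06) in the authors' deposited table, with an interval that did not overlap that of Bmpr1a. Bmpr1b was scarce, at an implied 48.5 and 20.5 normalized counts, and fell by 1.25 (SE 0.45, adjusted p 0.0180) in the authors' deposited table. Within the summed level per kb of Bmpr1a, Bmpr1b, Acvr1 and Acvrl1, Bmpr1a made up 79.8% in undifferentiated and 85.0% in differentiated cells.

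Co-receptors and the decoy receptor moved apart. Rgmb, a membrane-anchored BMP co-receptor, rose from an implied 599.8 to 972.7 normalized counts, a log2 fold change of 0.70 (SE 0.24, adjusted p 0.0110) in the authors' deposited table. Neo1 encodes neogenin, a receptor of RGM proteins and netrins. Its mean in the authors' deposited table, 7864 normalized counts, was the highest among the 54 symbols of the main list. It rose by 0.28 (SE 0.10, adjusted p 0.0137) in the authors' deposited table. Bambi, a kinase-less pseudoreceptor that blocks BMP and TGF-beta receptors, fell from an implied 246.0 to 52.5 normalized counts. In the authors' deposited table it stood at -2.23 (SE 0.31, adjusted p 4.73e-11), which is 4.68-fold.

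All 8 SMAD genes were well expressed, with means of 430.6 to 4234 normalized counts per the authors' deposited table. Of them, 5 fell (62.5%) and 1 rose (12.5%), against 25.6% and 21.9% of genes with a mean of at least 100. The other 2 were not called. The inhibitory SMADs, which block receptors and receptor SMADs and are themselves induced by the pathway, had, with Smad9, the largest falls. Smad6 (chromosome 9, 63953076 to 64022059), which acts mainly against BMP signals, went from an implied 723.9 to 137.2 normalized counts. The authors' deposited table lists it at -2.40 (SE 0.23, adjusted p 1.52e-22). Smad7, which acts on both branches, went from an implied 810.9 to 213.2 normalized counts, and stood at -1.93 (SE 0.17, adjusted p 3.95e-28) in the authors' deposited table. The intervals of Smad6 (-2.86 to -1.94) and Smad7 (-2.26 to -1.60) overlapped. Summed per kb, these inhibitory SMADs went from 405.2 to 90.0 implied normalized counts.

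The BMP receptor SMADs, close relatives in sequence, went in 3 different ways. Smad5 rose from an implied 3485 to 4983 normalized counts, and its log2 fold change was 0.52 (SE 0.10, adjusted p 1.49e-06) in the authors' deposited table. Smad1 stood at -0.13 (SE 0.12, adjusted p 0.473) in the authors' deposited table and was not called. Smad9, which is also known as a BMP target gene, fell from an implied 1124 to 315.0 normalized counts, at -1.84 (SE 0.23, adjusted p 8.12e-14) in the authors' deposited table. No interval of Smad1, Smad5 and Smad9 overlapped another. Their summed level per kb was 955.0 in undifferentiated and 983.1 in differentiated cells, in which the part of Smad9 went from 21.9% to 5.97% and that of Smad5 from 49.2% to 68.3%.

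On the TGF-beta and activin side, Smad3 fell and Smad2 was not called. Smad3 went from an implied 551.7 to 346.8 normalized counts, at -0.67 (SE 0.17, adjusted p 0.000473) in the authors' deposited table. Smad2 stood at -0.11 (SE 0.09, adjusted p 0.418) in the authors' deposited table, and its interval did not overlap that of Smad3. Smad4, the partner shared by both branches, fell slightly, by 0.22 (SE 0.08, adjusted p 0.0134) in the authors' deposited table. Smad4 was no longer called with the trend of fold change over mean expression removed (adjusted p 0.263).

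**Figure D3:**
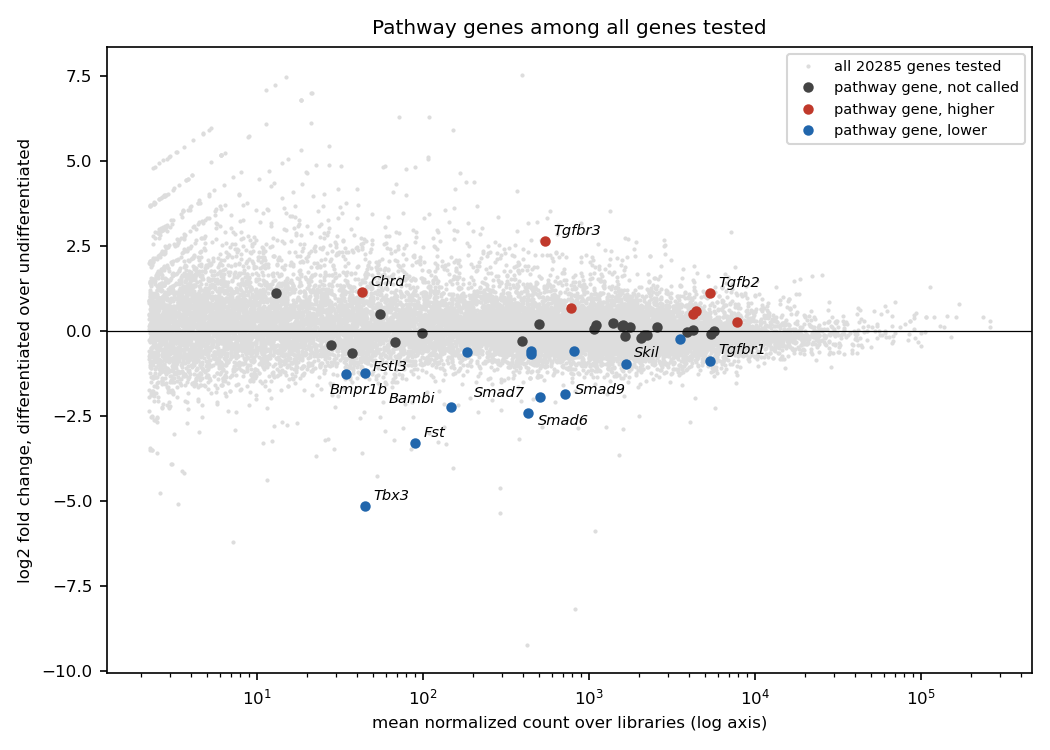
Log2 fold change (y axis) against the mean normalized count over libraries (x axis, log scale) for all 20285 genes tested in grey, with the 45 pathway genes in colour. Smad6, Smad7, Smad9 and Bambi lie below nearly all grey points of like mean, and Tgfbr3 lies above most of them.

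Extracellular antagonists that bind activins and BMPs were low in these cells and moved both ways, while the abundant binding proteins were not called. Fst (chromosome 13, 114452290 to 114458951), which encodes follistatin, a soluble trap of activins, fell from an implied 163.9 to 16.8 normalized counts. In the authors' deposited table its log2 fold change was -3.29 (SE 0.34, adjusted p 2.08e-20), or 9.78-fold. The related activin trap gene Fstl3 fell by 1.24 (SE 0.31, adjusted p 0.000466) in the authors' deposited table, and its implied mean went from 62.9 to 26.6. Exons of genes on the opposite strand cover 1157 of the 2445 exon bases of Fstl3, and whether the authors counted by strand is not given in the sources used here. Chrd, which encodes the BMP antagonist chordin, rose from an implied 26.9 to 59.4 normalized counts, at 1.14 (SE 0.33, adjusted p 0.00213) in the authors' deposited table. Grem1, another BMP antagonist gene, was at a mean of 0.42 in the authors' deposited table, without an adjusted p. Its values equal those of another gene, which at so low a mean says nothing of where its reads belong.

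Abundant members of this group were not called. Ltbp3 and Ltbp4, which hold latent TGF-beta in the matrix, stood at -0.20 (SE 0.15) and -0.03 (SE 0.13) in the authors' deposited table. Fstl1, a secreted follistatin-like glycoprotein, stood at 0.12 (SE 0.14) in the authors' deposited table. Their means lay between 2075 and 3902, per the authors' deposited table. The group had 6 genes tested, of which 1 rose and 2 fell, and all 3 of these had means under 100. The share called was 50.0%, against 35.9% of all genes tested.

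Of 8 intracellular regulators and response genes, 3 fell (37.5%, against 17.7% of all genes) and 0 rose (against 18.2%). Among the 6 with a mean of at least 100, 2 fell (33.3%) and 0 rose, against 25.6% and 21.9% of genes with such a mean. Skil, which encodes the SMAD repressor SnoN and is itself a TGF-beta target, fell from an implied 2212 to 1143 normalized counts. The value in the authors' deposited table was -0.95 (SE 0.12, adjusted p 3.19e-13). Its relative Ski stood at 0.02 (SE 0.08, adjusted p 0.876) in the authors' deposited table, and the intervals of Ski and Skil did not overlap. The ubiquitin ligase genes Smurf1 (0.12, SE 0.09) and Smurf2 (-0.10, SE 0.09) and the corepressor genes Tgif1 (0.20, SE 0.13) and Tgif2 (-0.32, SE 0.26) also missed the threshold in the authors' deposited table.

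Both transcription factor genes in this group that BMP is known to induce fell. Tbx3 (chromosome 5, 119670669 to 119684724), a T-box repressor, went from an implied 87.0 to 2.47 normalized counts. In the authors' deposited table it stood at -5.14 (SE 0.66, adjusted p 4.86e-13). At so low a final level the fold is poorly fixed, and its 95% interval is -6.44 to -3.83. Msx1, a homeobox gene, fell less, from an implied 222.6 to 147.0 normalized counts, at -0.60 (SE 0.18, adjusted p 0.00407) in the authors' deposited table.

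Genes known as targets of each branch were then compared, from lists that overlap with the genes above and were written with earlier results of these data known. Of 15 BMP target genes tested, 12 fell (80.0%, against 17.7% of all genes) and 1 rose (6.67%, against 18.2%). Their median log2 fold change was -1.93, against a median of 0.01 over all genes tested. Without the genes already described, 6 of 9 fell (66.7%) and 1 rose (11.1%), with a median of -1.33. Id1, Id2, Id3 and Id4, classical BMP targets whose products block basic helix-loop-helix factors, all fell, at -2.49 (SE 0.20), -5.88 (SE 0.42), -8.17 (SE 0.67) and -1.33 (SE 0.23) in the authors' deposited table. Atoh8, a helix-loop-helix gene also induced by BMP, fell from an implied 684.3 to 76.0 normalized counts, at -3.17 (SE 0.30) in the authors' deposited table. Gata2 fell by 0.69 (SE 0.16), Runx2 rose by 0.34 (SE 0.12), and Hey1 stood at -0.04 (SE 0.12) in the authors' deposited table.

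Among 17 TGF-beta target genes tested, 5 fell (29.4%, against 17.7% of all genes) and 3 rose (17.6%, against 18.2%), with a median of 0.07. Without the genes already described, 3 of 14 fell (21.4%) and 3 rose (21.4%), with a median of 0.19. Tgfbi, a matrix protein gene named for its induction by TGF-beta, rose by 2.17 (SE 0.16, adjusted p 7.79e-40) in the authors' deposited table, and its implied mean went from 382.0 to 1718. Pmepa1, a target gene whose product limits TGF-beta signals, fell by 1.27 (SE 0.21, adjusted p 3.99e-08) in the authors' deposited table. Junb, also a serum response gene, fell by 1.13 (SE 0.11), and Bhlhe40 rose by 1.37 (SE 0.52) in the authors' deposited table.

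**Figure D4:**
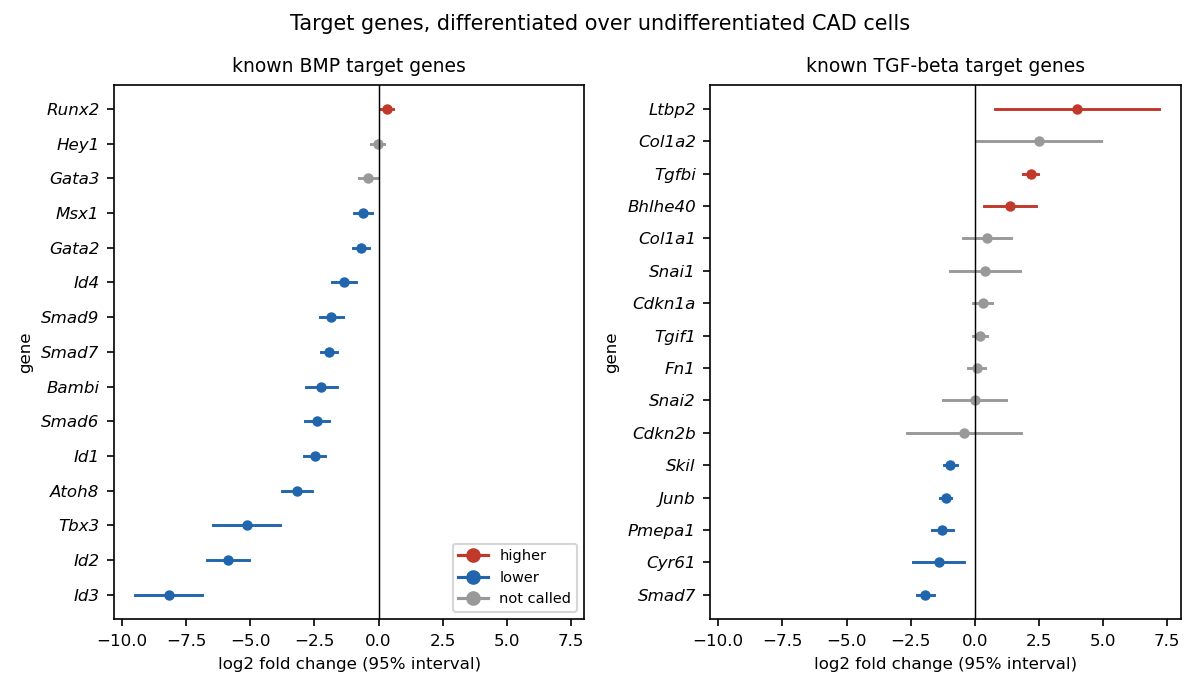
Log2 fold changes with 95% intervals (x axis, differentiated over undifferentiated) of the tested genes of the BMP target list (left, 15 genes) and the TGF-beta target list (right, 16 of 17 genes). Most BMP target genes lie left of zero, down to Id3 at -8.17, while the TGF-beta target genes run from Smad7 at -1.93 to Ltbp2 at 3.99; Ltbp2 has a mean of only 2.79.

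Other genes act on the ligands outside the cell. Of 11 further extracellular regulators tested, 5 rose (45.5%, against 18.2% of all genes) and 2 fell (18.2%, against 17.7%). Tll2, which encodes a BMP1-like protease, rose by 2.51 (SE 0.28, adjusted p 4.88e-17) in the authors' deposited table, and its implied mean went from 34.9 to 198.6. The proprotein convertases that cut ligand precursors moved apart, with Pcsk6 at 0.91 (SE 0.15, adjusted p 4.06e-08) and Furin at -0.40 (SE 0.15, adjusted p 0.0258) in the authors' deposited table. Bmper, a secreted BMP modulator, fell by 1.00 (SE 0.24, adjusted p 0.000279) in the authors' deposited table. The antagonist genes Dand5, at 0.78 (SE 0.24, adjusted p 0.00408), and Nbl1, at 0.59 (SE 0.17, adjusted p 0.00304), rose in the authors' deposited table. Among 8 further ligand genes tested, 0 fell (against 17.7% of all genes) and 2 rose (25.0%, near the 18.2% of all genes). They were Gdf1, at 1.04 (SE 0.19, adjusted p 6.29e-07), and Gdf9, at 0.88 (SE 0.32, adjusted p 0.0205) with a mean of 41.0, in the authors' deposited table. Amhr2, the type II receptor of anti-Müllerian hormone, rose by 1.32 (SE 0.28, adjusted p 1.51e-05) in the authors' deposited table.

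Among the markers of other cell types, Pecam1, Pdgfrb, Thy1 and Mbp rose. Of the fibroblast list, 8 of 10 genes had a row, with implied sums of 411.2 normalized counts in undifferentiated and 982.1 in differentiated cells, carried mainly by Twist1, Pdgfrb and Thy1. Pdgfrb rose by 2.51 (SE 0.29) and Thy1, which neurons also express, by 6.29 (SE 0.54), and Twist1 was not called (adjusted p 0.384), per the authors' deposited table. The matrix genes Dcn and Lum had means of 0.86 and 0.35 in the authors' deposited table. Of the glial list 6 of 8 genes had a row, with implied sums of 85.0 and 117.3. Of the immune list 4 of 7 had a row, with sums of 8.84 and 15.5, and of the endothelial list 4 of 6, with sums of 468.7 and 810.2, nearly all of it Pecam1. Pecam1 rose by 0.78 (SE 0.18, adjusted p 7.83e-05) at a mean of 631.7, and the glial myelin gene Mbp rose 2.82-fold (adjusted p 0.0121) at a mean of 20.3, in the authors' deposited table. The endothelial genes Cdh5 and Kdr had means of 3.68 and 2.74, and the glial gene Sox10 a mean of 0.31, in the authors' deposited table. Their part in the changes of Tgfbr3 and Tgfbi, which stromal cells also express, was not tested.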

How the data were processed

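RNA of 6 libraries was sequenced as single-end reads of 50 bp after a stranded library kit, per the labels' protocols. FastQC 0.11.5, Trimmomatic 0.36, STAR 2.5.1a, DESeq2 and build GRCm38.p6 are named, per the submitters' processing notes. How reads were counted, with which strand setting and annotation release, is not given in the sources used here. All values come from 1 table, in which the authors deposited 1 row per gene. Per the file headers, its signal is a mean normalized count over libraries, taken here as the mean of all 6, beside the log2 fold change and its standard error, the Wald score, the p-value and the adjusted p-value. The score equalled fold change over standard error (largest difference 1.24e-13), and the adjusted p-values came back from a Benjamini-Hochberg adjustment of 20285 of the 26436 p-values (largest difference 1.44e-15). The other genes have none and a mean of at most 2.25. The authors' pathway sheet holds stacked set statistics of another kind, and only 1 pathway was read from it. Its 3 blocks with headings that are in no label were not used.

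No test was refitted, and neither count models nor fits without single libraries were run, since library counts were not analysed here. The deposited means sum to 38846803, and depths of single libraries are not known here. The median standard error was 0.13 above and 0.65 below a mean of 100, so 95% intervals reached 1.19-fold and 2.43-fold to either side. They were computed as 1.96 standard errors on both sides. Levels per kb use the union of exons of GENCODE M21 (GRCm38), which gave the symbols of all 47 genes found; a gene with long untranslated exons that CAD cells do not use then looks too low. Exons of 13 of these genes overlap a gene on the opposite strand and those of 3 a gene on the same strand.

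Calls were recomputed at other thresholds, gene filters and centres with Python 3.11.15, numpy 2.4.6, pandas 2.3.3 and scipy 1.17.1, after the code had been tested on simulated data. Full statistics are given for called members and for uncalled ones whose mean reaches 100. They are also given for up to 4 called genes of each further list with the largest change and that minimum mean. Genes named outside these rules were chosen after their values were seen. Further lists that hold no member are described by counts. The members and lists were chosen with earlier results of these data known. Some genes of the further lists are counted but not reported here by name.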

Additional observations from a re-analysis of the deposited data

How the results depend on the processing

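Of the 22 genes called, 15 kept their call under each of the 9 alternatives that tested them, the 23 others stayed uncalled, and none changed direction. The alternative with a minimum mean of 100 tested only 34 of the 45. Among the 7 that lost a call, Bmpr1b (adjusted p 0.0180), Rgmb (0.0110), Neo1 (0.0137) and Smad4 (0.0134) missed an adjusted p under 0.01, and Tgfb1, Acvr1, Smad5, Neo1 and Smad4 changed less than 1.5-fold. The number of pathway genes called lay between 17 and 22. With an adjusted p under 0.01 the receptors called went from 7 to 4 and the further pathway genes called from 34 to 22. With a change of at least 1.5-fold these further genes went to 21 and all genes called from 7278 to 3786. With only genes of a mean of at least 100, which leaves out Fst, Fstl3 and Chrd, the extracellular antagonists and binding proteins called went from 3 to 0. Centring on the median gene or on implied group totals moved all fold changes by 0.03 or 0.02. No paired analysis was possible because single libraries were not analysed here; the sample numbers in the titles differ between the groups but run in like steps, and the labels do not say whether they mark matched series. Leaving out single libraries was not run for the same reason. Depth limits the genes with means under 100, whose intervals are wide.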

Other observations

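Intracellular partners of the pathway, of which the report gives only Pmepa1 and Runx2, include proteins that bind, modify or stabilise receptors and SMADs. Of 26 tested, 6 rose and 8 fell, or 53.8% called, with a median log2 fold change of -0.03. Among the 25 with a mean of at least 100, 56.0% were called, against 47.5% of all genes with such a mean. The E-box repressor genes Zeb1 and Zeb2, both SMAD partners, moved apart, at 0.52 (SE 0.11, adjusted p 8.47e-06) and -0.53 (SE 0.13, adjusted p 0.000154) in the authors' deposited table. Runx3 stood at -0.65 (SE 0.14) and Runx2 at 0.34 (SE 0.12) in the authors' deposited table. Usp11, a deubiquitinase that acts on the TGF-beta type I receptor, rose by 0.54 (SE 0.18, adjusted p 0.0125) in the authors' deposited table. Map3k7, the kinase TAK1 of the branch without SMADs, fell by 0.32 (SE 0.09, adjusted p 0.00153) in the authors' deposited table. The adaptor gene Zfyve9, which brings SMAD2 and SMAD3 to receptors, rose by 0.41 (SE 0.12, adjusted p 0.00284) in the authors' deposited table. The coactivator genes Ep300 (-0.13, SE 0.12) and Crebbp (-0.06, SE 0.12) missed the threshold in the authors' deposited table.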
